A study of Caenorhabditis elegans with 12 samples.

Results

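The mitochondrial ribosomal protein genes of Caenorhabditis elegans were taken as every gene whose name is mrpl or mrps followed by a number. The rule found 64 genes among 40961 gene names, 37 named for the large subunit (mrpl) and 27 named for the small subunit (mrps). Of these, 56 were expressed highly enough to be tested, which required at least 1 RPKM (reads scaled to transcript length and to the depth of the library) in at least 4 of the 12 libraries. The tested members comprised 33 genes named for the large subunit and 23 named for the small subunit. Large and small subunit genes below follow these names. Because the filter passes a gene through the libraries in which it is high, counts over the 56 tested members are not counts over all members.

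Mitochondria carry ribosomes of their own, which translate the few proteins encoded in mitochondrial DNA, all of them parts of the respiratory chain in animals. The proteins of these ribosomes are encoded in the nucleus, made in the cytosol and imported, so the organelle's translation depends on a large set of nuclear messages. In the worm, loss of some of these proteins, of which mrps-5 is the best known, slows mitochondrial translation, activates the mitochondrial unfolded protein response and lengthens life. Growing oocytes multiply their mitochondria, and the hermaphrodite gonad is rich in nuclear messages for the organelle.

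RNA came from gonads dissected with needles from F3 adults kept at 20 °C on OP50 bacteria. Their P0 ancestors had been exposed for 48 h to 100 µM bisphenol A (BPA, a monomer of plastics), to 0.1% of the solvent dimethyl sulfoxide (DMSO), or to water. The F3 animals themselves are thus separated from the exposure by several generations, and the labels give neither strain nor age beyond adulthood. Each group had 4 libraries, called here by group and sample number, so that BPA 1 is the first BPA library. The labels do not say whether the 4 samples of a group were separate cultures, and a p-value here speaks only to the spread among these samples, which can be technical in origin.

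The estimated depth was 14.04 to 33.3 M reads (M, 1e6) per library. The germline and oocyte markers identified the tissue, with all 7 measured (puf-5 listed at 0 in each library numbered 3) and summed levels of 2913 to 3787 RPKM across BPA, 2818 to 3547 across DMSO, and 1473 to 4874 across water. Water 1 stood apart at 1473 RPKM, with the yolk receptor gene rme-2 at 633 RPKM against 1459 RPKM or more in every other library. Other markers went the opposite way there, with oma-1 at 295, gld-1 at 177 and syp-1 at 43.2 RPKM, each at its highest of the 12 libraries. The sperm markers summed to 198 RPKM in water 3 and to at most 46.7 RPKM in the other libraries. The intestine markers summed to 13.5 to 74.3 RPKM across BPA, 13.9 to 604 across DMSO, and 19.1 to 162 across water, with DMSO 3 highest. Of the 6 intestine markers, asp-1 was listed at 0 in all 12 libraries and the defining factor gene elt-2 never exceeded 0.473 RPKM, so the sum was yolk protein genes. In whole dissected tissue, fewer cells of a type and less RNA per cell cannot be told apart.

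The mitochondrial ribosomal protein genes were moderately expressed. The median over the tested members of their mean level was 19.6 RPKM, against 15.4 RPKM over all 7570 tested genes, and all levels given in RPKM are scaled to transcript length. The 33 large subunit genes had a median of 20.9 RPKM and the 23 small subunit genes one of 15.9 RPKM. By comparison, the median was 494 RPKM for the proteins of the cytosolic ribosome and 39.9 RPKM for nuclear-encoded subunits of the respiratory chain and ATP synthase.

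Summed over all 64 members, the level was 1228, 1409.7, 1183 and 1435 RPKM across BPA 1 to 4, 1245, 1474, 1003 and 1387 across DMSO 1 to 4, and 2109.6, 1214, 1207 and 1519 across water 1 to 4. The 3 groups overlapped, water 1 lay far above every other library, and DMSO 3 was the lowest. Large subunit genes alone summed to 676 to 849 RPKM across BPA, 570.3 to 857 across DMSO, and 625 to 1229.8 across water. Genes named for the small subunit summed to 507 to 609 RPKM across BPA, 433 to 683 across DMSO, and 465 to 879.8 across water. Both sets of names thus had the same highest and lowest library. The sums by name are not sums by place in the ribosome, since the human counterparts of mrps-30 and mrps-18A lie in the large subunit.

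**Figure D1:**
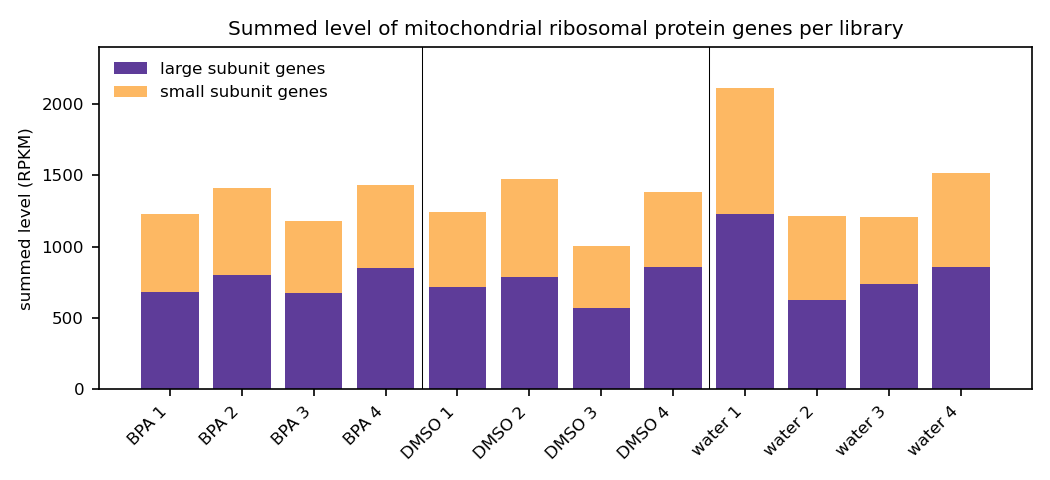
Summed level of the large and small subunit genes (RPKM, stacked bars from 0) in each of the 12 libraries, with BPA, DMSO and water set off by vertical lines. Water 1 stands at 2109.6 RPKM, DMSO 3 at 1003 RPKM, and the other 10 libraries between 1183 and 1519 RPKM.

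Among the large subunit genes the most abundant were mrpl-38, mrpl-28 and mrpl-51. The first of these, mrpl-38, was at 63.7, 63.7, 54.8 and 65.5 RPKM across BPA 1 to 4, 55.4, 65.8, 49.3 and 76.04 across DMSO 1 to 4, and 115, 51.5, 63.3 and 81.1 across water 1 to 4. The groups overlapped, and water 1 was the highest library. The gene mrpl-28, which has a counterpart in bacterial ribosomes, averaged 54.5 ± 6.93 RPKM across BPA, 55.2 ± 4.35 across DMSO, and 62.4 ± 10.3 across water (mean ± SD, n = 4 each). The gene mrpl-51 averaged 47.4 ± 3.85, 44.4 ± 5.61 and 58.1 ± 24.7 RPKM across BPA, DMSO and water. The lowest tested large subunit genes were mrpl-45, mrpl-17 and mrpl-36, with means over the 12 libraries of 1.51, 1.92 and 1.60 RPKM. In humans the counterpart of mrpl-45 helps to hold the ribosome at the inner membrane. Its level lay between 0.832 and 1.66 RPKM across BPA, 0.718 and 2.90 across DMSO, and 0.484 and 3.77 across water, so the groups overlapped.

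Among the genes named for the small subunit the most abundant were mrps-30, mrps-18A and mrps-5. The human counterparts of mrps-30 and mrps-18A lie in the large subunit despite their names. The gene mrps-30 was at 72.4, 93.6, 72.5 and 97.2 RPKM across BPA 1 to 4, 71.7, 73.6, 71.6 and 75.1 across DMSO 1 to 4, and 67.0, 80.0, 72.1 and 78.8 across water 1 to 4. It had the smallest spread of all tested members, an SD within groups of 0.15 on the log2(RPKM + 1) scale, and only BPA 2 and BPA 4 exceeded the range of the other libraries. The gene mrps-18A ranged from 28.7 to 94.9 RPKM across BPA, from 13.4 to 91.9 across DMSO, and from 35.2 to 184 across water. The longevity gene mrps-5 was at 23.9, 75.6, 44.1 and 55.5 RPKM across BPA 1 to 4, 69.7, 48.6, 7.35 and 64.3 across DMSO 1 to 4, and 31.1, 64.4, 60.4 and 68.5 across water 1 to 4. DMSO 3 was its lowest library, and the 3 groups overlapped. The lowest tested small subunit genes were mrps-35, mrps-31 and mrps-2, with means over the 12 libraries of 1.75, 2.89 and 3.505 RPKM.

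The stalk of a ribosome recruits translation factors, and mrpl-10, mrpl-11 and mrpl-12 encode its counterpart in mitochondria. The gene mrpl-11 averaged 18.9 ± 2.80 RPKM across BPA, 18.5 ± 2.06 across DMSO, and 21.9 ± 8.23 across water (mean ± SD, n = 4 each). The gene mrpl-12 was at 13.8, 13.96, 8.45 and 26.4 RPKM across BPA 1 to 4, 31.6, 18.01, 9.11 and 32.5 across DMSO 1 to 4, and 25.01, 11.05, 11.1 and 15.7 across water 1 to 4. Its lowest BPA and DMSO libraries were both number 3. The gene mrpl-10 was at 37.8, 29.1, 0 and 28.5 RPKM across BPA 1 to 4, 40.1, 1.77, 13.4 and 24.9 across DMSO 1 to 4, and 28.01, 21.4, 19.7 and 6.87 across water 1 to 4. Whether values listed at 0 are failed estimates was not tested. Of the 79 genes named for cytosolic ribosomal proteins, 67 of which passed the filter, 7 to 11 are also listed at 0 in each library.

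How much a member varied went with whether the authors' transcript models put it at a locus of its own. Of the 64 members, 39 were alone at their locus and 25 shared it with another gene name, and of the tested members 37 were alone and 19 shared (33.9% of the 56, against 17.2% of all tested genes). Members alone had a median within-group SD of 0.37 on the log2(RPKM + 1) scale (0.15 to 1.07), close to the 0.38 of all tested genes. Members sharing a locus had a median of 1.25 (0.21 to 2.72). When all transcripts of each of these 19 loci were summed, the median SD was 0.37. The SD of the sum was smaller than the gene's own in 17 of 19. A sum mostly follows its more abundant gene, so a smaller SD does not show how the member itself varied. At mrpl-50, with a mean of 8.52 RPKM over the 12 libraries, the neighbour cct-2 averaged 273, 244 and 260 RPKM across BPA, DMSO and water. Of the tested members, 12 were listed at 0 in at least 1 library (21.4%, against 8.67% of all tested genes), and 10 of these 12 shared a locus. The 10 were mrpl-10, mrpl-16, mrpl-17, mrpl-36, mrpl-49, mrpl-50, mrps-2, mrps-12, mrps-14 and mrps-16, and the 2 alone at their locus were mrpl-14 and mrps-35.

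The neighbours were mostly genes read in the same direction, and whether any pair forms an operon was not tested. Of 32 protein-coding partners, 31 lay on the member's strand, a share close to the 97.9% of all such gene pairs in the tables. Only 3 of the 32 overlapped the member in the annotation. The partners included nst-1, which encodes nucleostemin, at the locus of mrpl-10, cct-2 of the cytosolic chaperonin at that of mrpl-50, sel-1 of protein degradation at the endoplasmic reticulum at that of mrps-5, and eri-9 of the RNA interference pathway at that of mrps-18C.

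How a locus was divided between member and neighbour could differ from library to library, as is shown for 4 loci. The gene mrps-12, whose protein lies at the decoding centre, was at 20.9, 0, 21.6 and 0 RPKM across BPA 1 to 4, 0, 14.6, 0 and 0 across DMSO 1 to 4, and 0, 17.9, 0 and 0 across water 1 to 4. Its neighbour exos-7, an exosome subunit gene, was at 25.2, 35.5, 29.9 and 43.6 RPKM across BPA, 30.6, 29.6, 26.9 and 41.4 across DMSO, and 63.3, 18.4, 27.4 and 41.99 across water. The locus as a whole held 46.1, 35.5, 51.5 and 43.6 RPKM across BPA, 30.6, 44.2, 26.9 and 41.4 across DMSO, and 63.3, 36.3, 27.4 and 41.99 across water. No library was at 0 for the locus, and the 3 groups overlapped.

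The gene mrpl-49 was at 0, 0, 16.1 and 0 RPKM across BPA 1 to 4, 0, 34.3, 19.98 and 26.1 across DMSO 1 to 4, and 46.3, 24.2, 0 and 31.5 across water 1 to 4. Its neighbour R11D1.10 was at 19.8, 26.4, 9.43 and 25.9 RPKM across BPA, 24.1, 12.9, 8.33 and 10.9 across DMSO, and 19.4, 8.41, 21.8 and 11.7 across water. In BPA, DMSO and water alike, apart from water 1, R11D1.10 was high where mrpl-49 was listed at 0. The locus sum averaged 24.4 ± 3.09 RPKM across BPA, 34.1 ± 10.2 across DMSO, and 40.8 ± 18.7 across water (mean ± SD, n = 4 each).

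The gene mrps-14 was at 20.5, 0, 0 and 0.557 RPKM across BPA 1 to 4, 0.239, 25.6, 18.8 and 17.4 across DMSO 1 to 4, and 2.07, 0, 0 and 0 across water 1 to 4. Its neighbour nrde-2, a gene of nuclear RNA interference, was at 35.2 to 42.3 RPKM across BPA, 35.5 to 46.4 across DMSO, and 35.8 to 49.7 across water. Among the BPA libraries nrde-2 was lowest in BPA 1, where mrps-14 was highest, but among the DMSO libraries it was highest in DMSO 4, where mrps-14 was at 17.4 RPKM. The locus sum averaged 45.2 ± 7.05 RPKM across BPA, 55.6 ± 9.14 across DMSO, and 43.1 ± 5.05 across water. The gene mrpl-16, whose protein lies near the peptidyl transferase centre, exceeded 3 RPKM in only 3 libraries, BPA 2 with 27.5, DMSO 4 with 29.7 and water 3 with 25.4 RPKM. Its neighbour tag-189 was at its group's lowest level, 24.4, 21.6 and 18.3 RPKM, in the same 3 libraries.

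**Figure D2:**
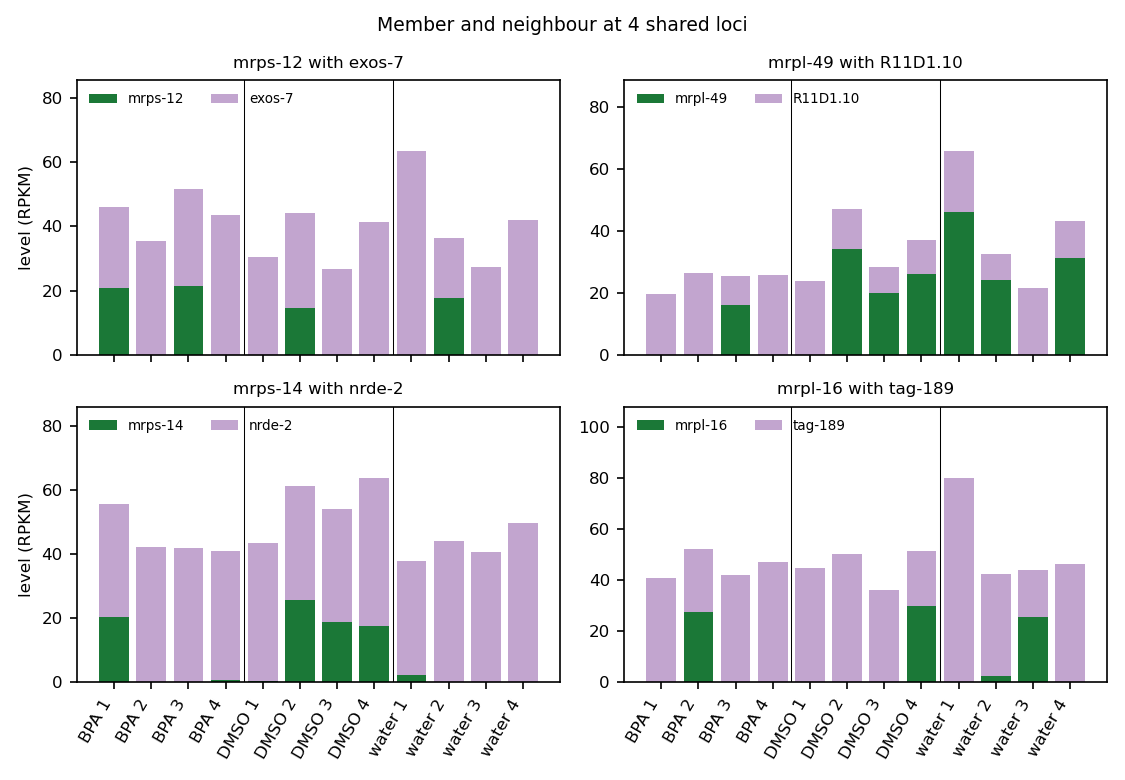
Level (RPKM, stacked bars from 0) of a mitochondrial ribosomal protein gene (green) and of the neighbour at its locus (lilac) in the 12 libraries, BPA, DMSO and water from left to right. The green portion comes and goes between libraries of 1 group, as for mrps-12 in BPA (20.9, 0, 21.6 and 0 RPKM), while no stack is at 0.

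Of the 8 members that were not tested, 6 shared a locus. The genes mrpl-23, mrps-26 and mrps-33, which shared one, and mrpl-54, which did not, were listed at 0 in all 12 libraries. A neighbour could still be well expressed, as with fars-1, which encodes a phenylalanyl-tRNA synthetase subunit, at 103.9 ± 5.49 RPKM across BPA, 110.1 ± 37.1 across DMSO, and 101.9 ± 17.7 across water at the locus of mrpl-23. The gene mrps-11 had 20.7 RPKM for BPA 4 and 21.8 for water 2 and was listed at 0 elsewhere. The gene mrpl-34 had 5.73 RPKM for BPA 1, 0.193 for BPA 4, 4.29 for water 1 and 1e-06 or less elsewhere, mrpl-13 stayed at or below 0.535 RPKM, and mrps-22 at or below 2.50 RPKM.

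Setting BPA against its solvent asks what BPA exposure of the ancestors left in the F3 gonad beyond DMSO. For the mitochondrial ribosome it showed no member past the threshold. Of the 56 members, 0 were called by limma at an adjusted p under 0.05 (percent called over all tested genes, 0.0264%), 0 had an unadjusted p under 0.05 (0.872%), and in 0 did the libraries of both groups not overlap (0.634% of all tested genes higher and 0.449% lower). The median log2 difference was 0.05 over the members and 0.02 over all tested genes, and 37 members lay above 0 and 19 below (66.1% above, against 55.5% of all tested genes). Without DMSO 3 the median was -0.04 and 22 members lay above 0 (39.3%, against 54.8%). The median was 0.06 for the large subunit (24 above 0, 9 below) and 0.01 for the small subunit (13 above, 10 below).

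The precision differed between the kinds of locus. For the 37 members alone at their locus, the half-width of the 95% confidence interval of the log2 difference had a median of 0.58. The differences ran from -0.47 to 0.74, and 35 of the 37 were within 0.5 of 0. All tested genes were alike, with a median half-width of 0.58 and 6998 of 7570 within 0.5 of 0. For the 19 that shared a locus, the median half-width was 1.73 and the differences ran from -2.55 to 1.38.

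**Figure D3:**
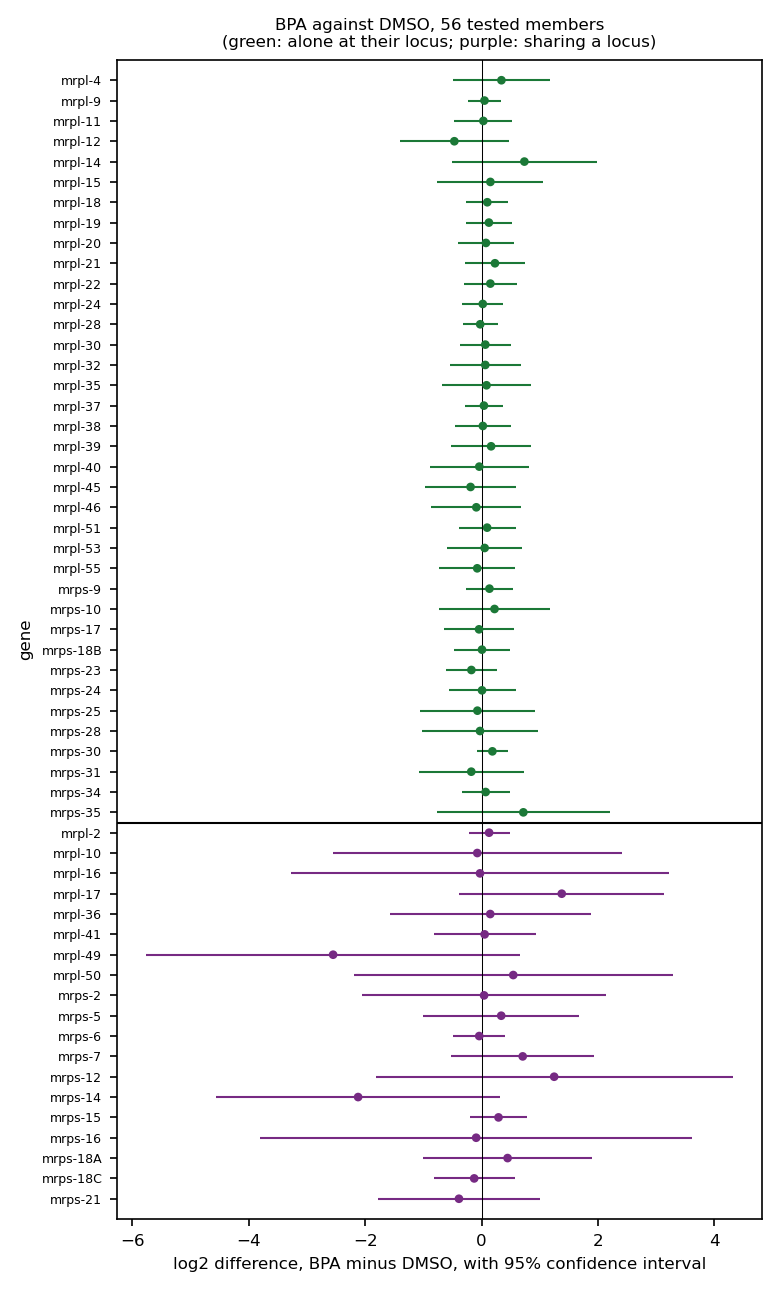
Log2 difference (BPA minus DMSO, on log2(RPKM + 1), point) with its 95% confidence interval (line) for the 56 tested members, those alone at their locus in green above the line and those sharing one in purple below it. Of the green points 35 of 37 lie within 0.5 of 0 (6998 of 7570 over all tested genes), and the widest intervals belong to purple members.

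The members with the smallest unadjusted p in this comparison were, among those higher in BPA, mrpl-17, mrps-30 and mrps-15. The gene mrpl-17 was at 0, 7.28, 4.64 and 1.23 RPKM in BPA 1 to 4 and at 1.28, 0, 0 and 0 RPKM in DMSO 1 to 4. Both groups held a 0, and the log2 difference was 1.38 (SE 0.81). The filter passed mrpl-17 only with its BPA libraries counted, as elsewhere it reached 1 RPKM only in DMSO 1 and water 4. In the same way mrps-14, below, passed only with its DMSO libraries counted, so neither p is independent of the filter. For mrps-30 the log2 difference was 0.19 (SE 0.12). The gene mrps-15 was at 43.9, 51.04, 46.97 and 63.9 RPKM across BPA and 50.4, 37.1, 26.6 and 59.1 across DMSO. The groups overlapped, with a log2 difference of 0.29 (SE 0.22). Among those lower in BPA, the log2 difference was -2.12 (SE 1.11) for mrps-14, -2.55 (SE 1.47) for mrpl-49 and -0.47 (SE 0.43) for mrpl-12. The adjusted p was 1.00 for each of these 6 genes. Summed over the locus, the log2 difference was -0.29 (SE 0.15) at mrps-14 and -0.43 (SE 0.29) at mrpl-49, with an adjusted p of 1.00 at each by limma over 7166 loci. In BPA against water the sum at mrpl-49 gave -0.62 (SE 0.29, adjusted p 0.988). In DMSO against water the sum at mrps-14 gave 0.35 (SE 0.15, adjusted p 0.999 by limma).

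Against water, the members' median difference was below 0 in BPA and in DMSO, and close to 0 in both once water 1 was left out. In BPA against water, 0 of 56 members were called (0.0132% of all tested genes) and 1, mrps-17, had an unadjusted p under 0.05 (2.71%). In 0 members were all BPA libraries above all water libraries (1.52%). The median log2 difference was -0.15 (-0.01 over all tested genes), and 17 members lay above 0 and 39 below (30.4% above, against 48.2% of all tested genes). Without water 1 the median was 0.05 over the members and over all tested genes, and 33 members lay above 0 (58.9%, against 59.2%). In DMSO against water, 0 of 56 were called (0.0132%) and 2, mrps-14 and mrps-17, had an unadjusted p under 0.05 (1.7%), and in 0 did the groups not overlap (0.515% of all tested genes higher and 0.37% lower). The median was -0.22 (-0.02 over all tested genes), with 14 above 0 and 42 below (25.0% above, against 46.2% of all tested genes). Without water 1 it was -0.03 (0.02 over all tested genes), with 24 members above 0 (42.9%, against 55.4%). These comparisons share the water libraries, and the first shares the BPA libraries with the comparison above. The gene mrps-14 passed the filter only with its DMSO libraries counted, as elsewhere it reached 1 RPKM only in BPA 1 and water 1. Its p against water is thus not independent of the filter.

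The gene mrps-17, which encodes a protein with a bacterial counterpart, was the member whose BPA and water libraries did not overlap (0.502% of all tested genes were lower in this way). It was at 4.17, 3.32, 3.24 and 4.13 RPKM across BPA 1 to 4, 4.12, 5.72, 2.58 and 3.46 across DMSO 1 to 4, and 10.4, 4.76, 5.01 and 8.68 across water 1 to 4. All BPA libraries were below all water libraries, while DMSO 2 was above water 2 and water 3. The log2 difference was -0.74 (SE 0.27, unadjusted p 0.0191, adjusted p 0.987 by limma) in BPA against water and -0.70 (SE 0.27, unadjusted p 0.0255, adjusted p 0.999) in DMSO against water. Without water 1 the difference from water was -0.56 in BPA and -0.52 in DMSO.

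The other members with the smallest unadjusted p in each direction against water did not pass the threshold either, and these p-values ran from 0.0205 to 0.335. In BPA against water these were mrpl-14 (log2 difference 1.13, SE 0.57), mrpl-39 (0.37, SE 0.32) and mrps-30 (0.16, SE 0.12) on the higher side and mrpl-49 (-2.79, SE 1.47) and mrps-28 (-0.78, SE 0.46) on the lower. The filter passed mrpl-14 only with its BPA libraries counted, as elsewhere it reached 1 RPKM only in DMSO 2, DMSO 4 and water 4. For mrps-28, BPA had 6.78, 6.34, 8.37 and 9.42 RPKM and water had 45.96, 5.72, 10.7 and 12.03 RPKM in libraries 1 to 4. Water 1 was the highest library, and without it the difference was -0.22. In DMSO against water they were mrps-14 (2.98, SE 1.11), mrps-6 (0.22, SE 0.20) and mrpl-12 (0.43, SE 0.43) on the higher side and mrpl-21 (-0.50, SE 0.24) and mrpl-15 (-0.75, SE 0.42) on the lower. The adjusted p was 0.987 in BPA against water and 0.999 in DMSO against water for these genes. For mrps-6 the difference was 0.00065 without water 1, and for mrpl-15 it was -0.32.

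Within sample numbers taken apart, 3 members passed the threshold, each at a locus shared with a neighbour. The split of numbers 1 and 3 from 2 and 4 came from an earlier look at these data, so these calls are descriptive. With numbers 1 and 3 alone, mrps-12 was called in BPA against DMSO (adjusted p 0.0257) and in BPA against water (0.0220), with 0.0528% of all tested genes called in each, where both BPA libraries were above 20 RPKM and both DMSO and both water libraries were listed at 0. With numbers 2 and 4 alone, mrpl-49 was called in BPA against DMSO (adjusted p 0.0115) and in BPA against water (0.00480), with both BPA libraries listed at 0 (0.159% and 0.211% of all tested genes called). In the same libraries mrps-14 was called in BPA against DMSO (adjusted p 0.0268) and in DMSO against water (0.0224, with 0.0925% called). The same libraries were also compared by locus sums, an analysis added after these calls were seen. In it 0 members' loci were called in any of the 3 comparisons. The adjusted p in BPA against DMSO was 1.00 for the loci of mrps-12, mrpl-49 and mrps-14. These sums also hold the neighbour, as with nrde-2, which averaged 39.9, 40.2 and 42.6 RPKM across BPA, DMSO and water beside mrps-14. They therefore do not settle how the member itself differed. The filter passed mrps-12 only with its BPA libraries counted and mrps-14 only with its DMSO libraries counted, so their calls are not independent of the filter.

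**Figure D4:**
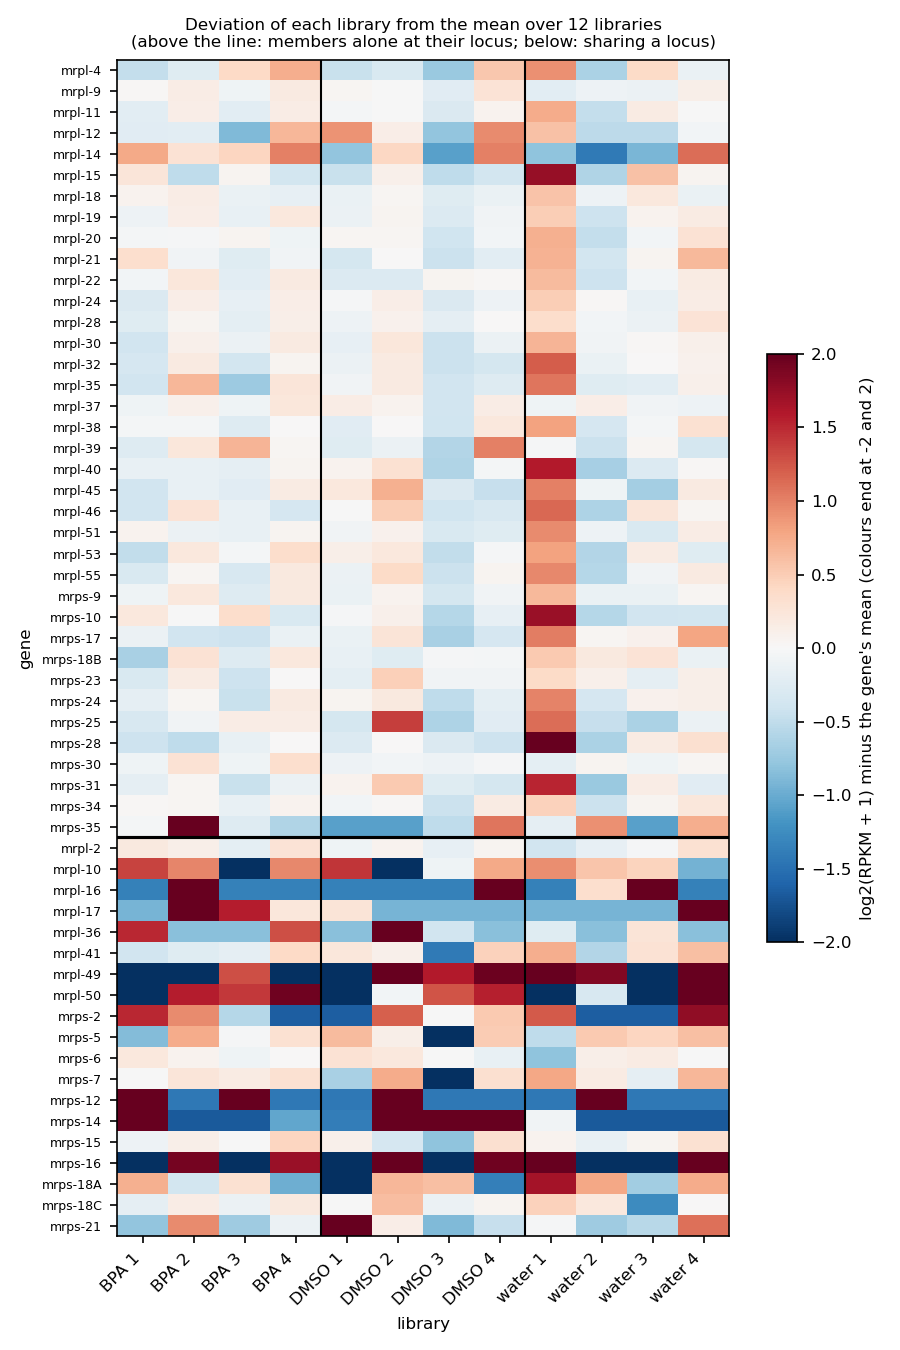
Deviation of each library from the gene's mean over the 12 libraries, on log2(RPKM + 1), for the 56 tested members (rows) and the libraries (columns, BPA, DMSO and water from left to right), in red above and in blue below the mean. Above the black line are the 37 members alone at their locus, with a red column for water 1 and a mostly blue one for DMSO 3. Below it are the 19 that share a locus, with a patchwork between libraries.

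Single libraries stood apart over many members at once. Water 1 was the highest of the 12 libraries in 33 of 56 members (58.9%), against 32.7% of all tested genes, and the members' median deviation there was 0.66. DMSO 3 was the lowest in 20 of 56 (35.7%), against 8.1% of all tested genes, with a median deviation of -0.40. Members alone at their locus gave 0.71 in water 1 and -0.40 in DMSO 3. DMSO 3 was the library with the highest summed intestine markers (604 RPKM) and water 1 the library with the lowest summed germline markers (1473 RPKM, though 3 of the 7 markers were at their highest there), and the part of either in these levels was not tested. Proteins of the cytosolic ribosome deviated likewise, with a median of 0.63 in water 1 and -0.58 in DMSO 3. The estimated depth was 33.3 M reads in DMSO 3, the deepest library, and 14.5 M in water 1. Water 3, the shallowest at 14.04 M reads, had a median deviation of -0.06 over the members. The part of depth in these levels was not tested.

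By sample number, numbers 1 and 3 together were compared with 2 and 4, a split on which 9.18% of all tested genes were called. The split was noted in an earlier look at these data. It therefore describes how members varied by number and is not an independent test. Of the 56 members, 0 were called, and 3 (mrpl-9, mrpl-50 and mrps-30) had an unadjusted p under 0.05 (21.2% of all tested genes). The median log2 difference, numbers 1 and 3 minus 2 and 4, was -0.11 over the members and 0.07 over all tested genes, and 37 of 56 members were below 0 (66.1%, against 39.9%). In the test over all 4 numbers 0 members were called (0.0661%), and mrpl-12, mrpl-14 and mrpl-50 had an unadjusted p under 0.05 (16.4%).

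The median was above 0 in water, though not without water 1, and below 0 in BPA and DMSO. The median over the members was -0.29 in BPA and -0.31 in DMSO but 0.35 in water (0.41 for the large subunit and -0.0070 for the small), while over all tested genes it was 0.08, 0.03 and 0.19. Without water 1, a choice made after seeing the data, the median in water was -0.05 over the members, against 0.07 over all tested genes. Cytosolic ribosomal protein genes gave -0.59 in BPA, -0.41 in DMSO and 0.29 in water, or -0.03 without water 1. Muscle markers, by contrast, were higher in numbers 1 and 3 in all 3 groups, with 5 of 5 above 0, 4 of 5 called, and summed levels of 11.8 to 39.3 RPKM across BPA, 11.4 to 27.3 across DMSO, and 11.3 to 44.3 across water. The 3 tested gonadal sheath markers were also above 0 (median 0.44, 0 below 0, 0 called), with medians of 0.51, 0.47 and 0.11 in BPA, DMSO and water. The part of muscle, sheath or other tissue in the members' differences was not tested. Lower in numbers 1 and 3 in every group were 12 of 56 members (21.4%, against 10.3% of all tested genes), namely mrpl-2, mrpl-9, mrpl-14, mrpl-37, mrpl-50, mrps-5, mrps-7, mrps-15, mrps-18C, mrps-23, mrps-30 and mrps-35. Higher in every group were 0 of 56 (26.8% of all tested genes).

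Among the members, mrps-16 showed the widest difference by number. It was at 0, 17.7, 0 and 15.5 RPKM across BPA 1 to 4, 0, 20.02, 0 and 18.04 across DMSO 1 to 4, and 72.1, 0, 0 and 24.1 across water 1 to 4. In BPA and in DMSO both odd-numbered libraries were listed at 0 and both even-numbered ones were not, and water did not follow. The log2 difference was -2.56 (SE 1.23, adjusted p 0.272 by limma), and mrps-16 shares its locus with F56D1.1 and F56D1.2. Over the same 12 libraries the sum of its locus gave -0.03 (adjusted p 0.973). Without water 1 the gene passed the threshold (-3.75, adjusted p 0.00941) in a fit that called 13.1% of all tested genes. The gene mrpl-50 was at 0, 14.5, 12.9 and 19.1 RPKM across BPA, 0, 4.04, 11.5 and 14.3 across DMSO, and 0, 3.17, 0 and 22.6 across water (log2 difference -2.29, SE 0.82, adjusted p 0.121). The sum of its locus over the 12 libraries gave -0.29 (adjusted p 0.217). That sum was mostly the neighbour cct-2, which averaged 273, 244 and 260 RPKM across BPA, DMSO and water, and it says little of mrpl-50. For mrpl-50 itself, the library numbered 1 was at 0 and that numbered 4 the highest in each group. Without DMSO 3 the gene passed the threshold (-2.87, adjusted p 0.0478) in a fit that called 5.97% of all tested genes. Locus sums were not fitted without these libraries.

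Other members with large differences by number were smaller or less regular. The gene mrpl-16 had a log2 difference of -1.12 (SE 1.23) and mrps-35 one of -1.06 (SE 0.48). On the other side were mrpl-15 (0.56, SE 0.30), mrps-10 (0.44, SE 0.35), mrps-28 (0.40, SE 0.37) and mrps-31 (0.29, SE 0.33), all of them highest in water 1 and none past the threshold. The well measured mrps-30 averaged 71.2 RPKM in numbers 1 and 3 and 83.04 RPKM in 2 and 4 (log2 difference -0.21, SE 0.08, unadjusted p 0.0195, adjusted p 0.127). The exposure by number interaction was called for 0 members and for 6 of all tested genes.

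The members have short messages, and deviations of whole libraries went with length. In the annotation the median spliced length was 747 bases for the 63 members that could be matched and 1457 bases for all tested genes. In water 1 the median deviation of all tested genes was 0.63 below 600 bases, 0.51 from 600 to under 1000 bases, 0.19 from there to under 1500 bases and -0.18 at 2500 bases and over. Members in the same library deviated by 0.59, 0.72 and 0.26 in the first 3 of these classes (8, 30 and 14 members), on the side of other genes of their length. From 1500 to under 2500 bases the 3 members gave 1.00 and all tested genes 0.03. In DMSO 3 the members' medians were -0.46, -0.35 and -0.40, against -0.26, -0.12 and -0.02 for all tested genes of these classes. The part of length in the members' levels was not tested.

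**Figure D5:**
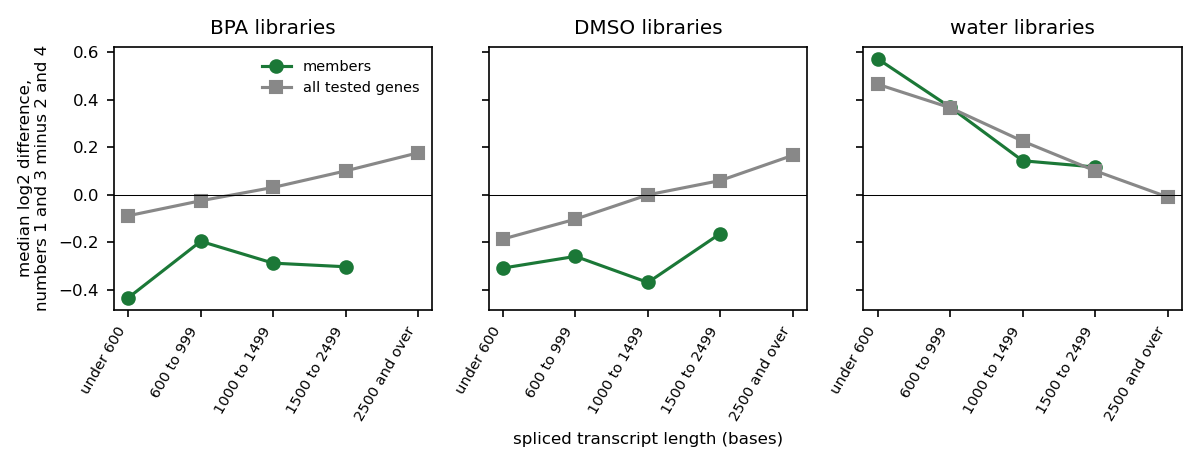
Median log2 difference, numbers 1 and 3 minus 2 and 4, by class of spliced transcript length (bases) in BPA, DMSO and water, for the tested members (green circles, classes of at least 3 members) and all tested genes (grey squares). In BPA and DMSO the members lie below all tested genes in each class shown, and in water both come down with length; the class from 1500 bases holds only 3 members.

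Differences by number lay below those of other genes of like length in BPA and in DMSO. From 600 to under 1000 bases, a class of 30 members, the median was -0.20 in BPA and -0.26 in DMSO for the members and -0.03 and -0.10 for all tested genes of the class. In water it was 0.37 for both.

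The annotation placed 21 of the 63 matched members on chromosome III (33.3%), which holds 19.5% of the tested genes, and 0 on the X chromosome, which holds 11.1%. Chromosomes I, II, IV and V held 13, 11, 9 and 9 members. No test was made of this, since the membership of a gene family does not depend on these libraries.

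In the 3 exposure comparisons, other nuclear genes for mitochondria did not pass the threshold either. Of all tested genes, 0.0264% passed it in BPA against DMSO, 0.0132% in BPA against water and 0.0132% in DMSO against water. Of 8 measured translation and genome factors, 9 aminoacyl-tRNA synthetases of the organelle, 33 tested respiratory chain and ATP synthase genes, 9 tested genes of the mitochondrial unfolded protein response and 5 tested import genes, 0 were called in BPA against DMSO, BPA against water or DMSO against water. The elongation factor gene tufm-1 averaged 92.9 ± 10.4 RPKM across BPA, 92.2 ± 15.2 across DMSO, and 90.04 ± 8.17 across water (mean ± SD, n = 4 each). The chaperonin gene hsp-60, a target of the unfolded protein response, averaged 366 ± 23.6 RPKM across BPA, 342 ± 51.4 across DMSO, and 315 ± 82.4 across water. The unfolded protein response list had a median log2 difference of 0.10 in BPA against DMSO (7 of 9 above 0), 0.17 in BPA against water (7 of 9) and 0.07 in DMSO against water (7 of 9), where 55.5%, 48.2% and 46.2% of all tested genes lay above 0. By number the respiratory chain genes had 4 of 33 called (12.1%, against 9.18% of all tested genes), all higher in 1 and 3, and the other 4 lists had 0. None of the 12 mitochondrially encoded genes was found by name in the tables, so the products of the organelle's own translation are not analysed here.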

How the data were processed

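Per the labels' protocols, cDNA was made with a SMART-Seq kit for low input, prepared with Nextera XT from 1 ng and sequenced single-end at 50 bp. The authors deposited RPKM values per transcript in 11 tables and FPKM values, the same quantity for single-end reads, in that of BPA 1, per the file headers. HISAT, StringTie and build ce10 are named in the submitters' processing notes, with versions not given in the sources used here. No step that keeps strand is named, so values of overlapping and antisense genes are uncertain. The files hold no counts, so depth was estimated from the step 1 read makes. Too few low values (29.1% to 33.6%) came out whole within 0.1 read for a count test.

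Values were summed per gene name (49201 transcripts, 279 without a name left out). limma 3.58.1 in R 4.3.3 was run on log2(RPKM + 1), with all 12 libraries in 1 fit, a variance trend, two-sided tests and Benjamini-Hochberg adjustment over 7570 genes. This scale understates differences of low genes. All adjusted p-values are from limma. The fit was tested on simulated data. No 2 libraries were copies (at most 0.0132% identical values above 0). Chromosome, strand and length came by name from the Ensembl release 115 annotation, of another build, so no coordinates are given. Sums and figures were made in Python 3.11.15.

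Members, gene lists and tests were chosen with earlier results of these data known. Named members are, in each exposure comparison, the 3 with the smallest p in each direction, the 3 highest and lowest of each subunit, those untested or at 0, the 4 with the largest difference by number in each direction, the 3 with the largest SD, and mrps-5, mrps-12, mrpl-10, mrpl-11 and mrpl-12.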

Additional observations from a re-analysis of the deposited data

Results flagged for a closer look

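In groups of 4 libraries, 25 of the 168 group values of the 56 tested members held a library far from the other 3 by Dixon's gap criterion (14.9%, against 9.58% of the group values of all tested genes), in 17 members, where chance alone flags about 1 group in 20. In 24 of the 25 it was a single high library. For mrpl-16 these were BPA 2 at 27.5, DMSO 4 at 29.7 and water 3 at 25.4 RPKM, with the other libraries at 2.22 RPKM or less. For mrps-12 they were 14.6 RPKM in DMSO 2 and 17.9 RPKM in water 2, and for mrps-14 20.5 RPKM in BPA 1 and 2.07 RPKM in water 1. The gene mrpl-49 stood at 16.1 RPKM in BPA 3, mrpl-50 at 22.6 RPKM in water 4 and mrpl-36 at 9.76 RPKM in DMSO 2. The gene mrpl-17 stood at 1.28 RPKM in DMSO 1 and 8.57 RPKM in water 4. The gene mrps-21 stood at 63.4 RPKM in DMSO 1. All of these share a locus with another gene. Of members alone at their locus, mrps-35 stood at 8.44 RPKM (BPA 2) and 3.46 RPKM (DMSO 4), and mrpl-14 at 4.81 RPKM in water 4. In water 1, mrps-10 was at 36.8, mrps-28 at 46.0, mrpl-32 at 68.3 and mrpl-40 at 95.5 RPKM. In BPA 4, mrpl-40 was at 32.5 RPKM, and in DMSO 2 mrps-23 was at 22.1 and mrps-25 at 41.3 RPKM. The gene mrpl-37 was at 17.6 RPKM in DMSO 3, below the other 3, and at 25.7 RPKM in water 2.

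In 8 members both libraries numbered 1 and 3 lay on one side of both libraries numbered 2 and 4 in 1 group and on the opposite side in another. The share of all tested genes with this pattern was not counted, so the 8 are not read as particular to the members. On the log2 scale, numbers 1 and 3 minus 2 and 4, mrpl-11 gave -0.35 in BPA, -0.20 in DMSO and 0.70 in water, and mrpl-15 gave 0.59 in BPA, -0.35 in DMSO and 1.44 in water. In DMSO and water, mrpl-4 gave -0.70 and 1.03, mrpl-18 gave -0.14 and 0.50, and mrpl-39 gave -0.86 and 0.41. In BPA and water, mrpl-53 gave -0.54 and 0.90, mrps-18B gave -0.70 and 0.37, and mrps-31 gave -0.28 and 1.32. The interaction of exposure with odd or even number, tested over all genes with limma, had an adjusted p of 0.820 for each of these 8.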

How the results depend on the processing

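For the 3 exposure comparisons, 0 members were called under pseudocounts of 0.1 and 5, no filter, median scaling, quantile normalization, library weights, locus sums and each library left out (0 to 0 called). Of all genes or loci tested in each of these fits, 0 to 3 were called. With numbers 1 and 3 alone 1 member was called in BPA against DMSO and 1 in BPA against water, and with 2 and 4 alone 2, 1 and 1 in the 3 comparisons (of all 7570 genes 4 and 4, then 12, 16 and 7). The members' median log2 difference ranged over libraries left out from -0.04 to 0.13 in BPA against DMSO, -0.26 to 0.05 in BPA against water and -0.34 to -0.03 in DMSO against water, and was -0.41 in BPA against water and -0.54 in DMSO against water with numbers 1 and 3 alone, against 0.18 and 0.09 with numbers 2 and 4 alone. The test over 4 numbers called 3 members with library weights (5.36%, against 14.8% of all tested genes) and 0 with any library left out. Numbers 1 and 3 against 2 and 4 called 6 members with library weights (10.7%, against 17.1%), 0 to 1 with a library left out (1 without DMSO 3 and 1 without water 1, where 5.97% and 13.1% of all tested genes were called), 2 in BPA alone and 1 in DMSO alone (0.172% and 0.198% of all tested genes).

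Same-numbered libraries deviated together only in part (r from -0.07 to 0.34). In another group, 6 of 12 libraries matched their own number best, and 9 of 12 a number that was odd or even like their own. The labels do not say what equal numbers share, so they were not taken as pairs. With the replicate block the number of members called stayed 0 in each exposure comparison.

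Directions reversed for single genes, and the cause was not tested. With numbers 2 and 4 alone these were mrps-6 (-0.016) and mrpl-15 (0.14) in DMSO against water and mrps-12 (-1.98) in BPA against DMSO. Locus sums of the same libraries gave -0.028, 0.14 and -0.12, and those of numbers 1 and 3 alone gave -0.33 for mrpl-17 in BPA against DMSO. By number, mrps-16 (0.77) and mrpl-16 (1.52) reversed in water alone, mrpl-15 (-0.35) and mrps-10 (-0.26) in DMSO alone, and mrps-28 with library weights (-0.0085), in BPA alone (-0.034) and in DMSO alone (-0.088). The gene mrps-31 reversed with quantile normalization (-0.047), library weights (-0.021), without water 1 (-0.0099, with up to 0.46 for other libraries left out), in BPA alone (-0.28) and in DMSO alone (-0.17). The main limits are 4 libraries a group, unknown sharing behind sample numbers, and values divided between genes of 1 locus.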

Other observations

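The locus of mrps-22 joins 6 gene names, and its neighbours changed places between libraries. The nuclease gene crn-3 was at 2.92, 5.05, 2.61 and 3.18 RPKM across BPA 1 to 4, 94.3, 86.1, 1.93 and 93.1 across DMSO 1 to 4, and 115, 4.05, 12.7 and 2.75 across water 1 to 4. The gene C14A4.3 was at 63.7, 59.9, 61.5 and 62.8 RPKM across BPA, 39.5, 37.5, 57.8 and 36.4 across DMSO, and 31.6, 64.1, 59.5 and 63.2 across water. C14A4.3 was thus lowest where crn-3 was high. At the same locus dap-3, whose human counterpart is a small subunit protein of the mitochondrial ribosome, was at 69.9 RPKM in BPA 2 and at 12.5 RPKM or less in every other library. The locus as a whole averaged 90.7 ± 31.9 RPKM across BPA and 126 ± 45.8 across DMSO (mean ± SD, n = 4 each), a log2 difference of -0.44 (SE 0.37).

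At the locus of mrpl-41, djr-1.1, a counterpart of the Parkinson's disease gene DJ-1, was at 0.846 RPKM or less in 10 libraries, 25.6 RPKM in DMSO 3 and 66.5 RPKM in water 1. At the locus of mrps-21, F29B9.11 had 50.1 RPKM for BPA 2 and 52.6 for water 4, and was listed at 0 in the other 10 libraries.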
